A study of Mus musculus with 29 samples.

Results

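The interferon response genes examined here are 36 mouse genes picked by symbol from a list of known interferon targets. The rule itself used no measured value, but the list was drawn up with earlier results of these data known. All 36 were found by Ensembl identifier among the 38924 genes of the blood stem cell table, and 35 among the 18194 genes of the niche cell table; Oas1a was not analysed in the niche cells. After the filter on low counts, 33 members were tested in the blood stem cells and 5 in the niche cells (Irf1, Bst2, Ifitm2, Ifitm3 and Ifi27).

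The study asked how niche WNT5A, a secreted WNT ligand, bears on blood stem cells that regenerate after transplantation. LSK cells, which lack lineage markers and carry Sca-1 and Kit and so hold blood stem and early progenitor cells, were sorted after transplantation from 6 WT and 5 Wnt5a-haploinsufficient niches (the groups called WT and Wnt5a below). Endothelial (EC), osteoblastic (OBC) and mesenchymal (MSC) niche cells were sorted from 3 samples of each niche genotype. Every sample carried the strain label 129Ly5.1, so all groups shared that background. Age is not given in the sources used here, nor is whether the LSK sort separated donor from host cells. Nothing in the labels says that replicates came from separate animals, so the p-values below measure the spread between these samples, which may be technical.

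LSK libraries were made with Smart-seq2, which copies whole transcripts and counts reads, and held 1254553 to 5775459 reads in genes. Niche libraries were made with UMI-seq, which counts molecules by tags, and were shallow, with 18542 to 117989 UMIs in EC, 19999 to 50421 in MSC and 10635 to 29772 in OBC. Summed endothelial markers (11 genes) overlapped between MSC (10339 to 11194 counts per 1000000, CPM) and EC (10515 to 11643 CPM) from WT niches, against 2695 to 4199 CPM in OBC from WT niches. Osteoblastic markers (9 genes) reached 2286 to 19337 CPM in OBC against at most 1420 CPM in any EC or MSC library. From Wnt5a niches, endothelial markers were 6519 to 7899 CPM in MSC and 9449 to 13497 CPM in EC, without overlap. The 8 mesenchymal markers were no higher in MSC (3186 to 7494 CPM) than in OBC (3712 to 10525 CPM). They did not set MSC apart from OBC, but every MSC library lay above the EC libraries (973 to 1767 CPM). Erythroid markers made up 290495 CPM in EC WT replicate 14 and 14711 to 145051 CPM in the other niche libraries. All 9 blood stem and progenitor markers were detected in every LSK library. Wnt5a itself had 0 to 5 reads in the LSK libraries and was not among the genes of the niche cell table, so it gave no check of the genotype labels.

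Interferons are signalling proteins released when cells sense virus or nucleic acid. Type I interferons signal through JAK kinases to transcription factors that bind the interferon-stimulated response element (ISRE), while interferon gamma acts through the gamma-activated site (GAS). The induced genes include sensors of foreign RNA, enzymes that block viral translation or replication, membrane proteins that stop virus entry or release, and the immunoproteasome that cuts peptides for MHC class I. In the bone marrow, interferon is known to push resting blood stem cells into division, and stem cells hold part of the programme at a basal level without infection.

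RefSeq promoter windows on GRCm38.p6 were available for 29 members and were searched over the 250 bases before the gene start, on both strands. The letters of the ISRE core, GAAA followed by any 2 bases and a second GAAA, occurred in 11 of 29 members (37.9%) against 2.98% of all 32851 windows. The GAS core, TTCNNNGAA, occurred in 7 of 29 (24.1%) against 7.02% of all windows. The members' shares count genes, and some members had more than 1 window. Counted by window, 11 of the members' 35 windows held the ISRE core and 7 the GAS core. Bst2, Gbp7 and Oas1a held both. The 7 windows below belong to the members on which the results turn: the 3 neighbouring Ifitm genes, which had the highest levels per length in LSK and of which Ifitm2 and Ifitm3 differed between niche populations, Bst2 and Gbp2, which had the largest estimate and the smallest p-value in LSK, respectively, Isg15, which was near 0 in LSK, and Irf1. Each runs 5′ to 3′ towards the gene start, and capitals mark ISRE or GAS core letters on either strand.

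Ifitm1, chr7:140967826-140968075, plus strand: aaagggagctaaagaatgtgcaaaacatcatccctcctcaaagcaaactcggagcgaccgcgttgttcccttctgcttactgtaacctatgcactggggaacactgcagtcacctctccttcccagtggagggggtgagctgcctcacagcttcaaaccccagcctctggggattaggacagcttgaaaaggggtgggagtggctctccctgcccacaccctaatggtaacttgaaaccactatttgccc
Ifitm2, chr7:140955962-140956211, minus strand: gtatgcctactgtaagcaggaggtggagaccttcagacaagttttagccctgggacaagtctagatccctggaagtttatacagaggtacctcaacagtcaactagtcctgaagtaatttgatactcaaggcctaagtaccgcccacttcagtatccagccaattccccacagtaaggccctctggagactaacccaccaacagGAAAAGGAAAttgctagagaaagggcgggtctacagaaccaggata
Ifitm3, chr7:141010745-141010994, minus strand: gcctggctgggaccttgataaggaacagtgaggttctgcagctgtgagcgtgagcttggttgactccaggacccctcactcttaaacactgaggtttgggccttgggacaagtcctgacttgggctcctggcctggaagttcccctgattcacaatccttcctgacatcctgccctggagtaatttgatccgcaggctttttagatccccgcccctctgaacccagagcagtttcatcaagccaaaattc
Bst2, chr8:71537473-71537722, minus strand: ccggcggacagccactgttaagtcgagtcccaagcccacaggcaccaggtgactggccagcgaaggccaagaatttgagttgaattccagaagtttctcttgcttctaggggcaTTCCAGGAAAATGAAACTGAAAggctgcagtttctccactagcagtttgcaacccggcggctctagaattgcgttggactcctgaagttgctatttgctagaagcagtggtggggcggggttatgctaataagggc
Gbp2, chr3:142620413-142620662, plus strand: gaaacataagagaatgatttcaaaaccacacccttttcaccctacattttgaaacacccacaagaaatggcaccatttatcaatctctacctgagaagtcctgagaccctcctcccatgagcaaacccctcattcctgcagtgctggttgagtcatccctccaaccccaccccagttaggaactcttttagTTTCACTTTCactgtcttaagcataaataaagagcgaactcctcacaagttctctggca
Isg15, chr4:156200819-156201068, minus strand: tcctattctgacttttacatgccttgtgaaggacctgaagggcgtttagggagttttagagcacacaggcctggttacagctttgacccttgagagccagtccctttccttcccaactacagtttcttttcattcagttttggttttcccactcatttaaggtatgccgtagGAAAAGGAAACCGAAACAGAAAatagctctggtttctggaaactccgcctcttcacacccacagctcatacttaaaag
Irf1, chr11:53769764-53770013, plus strand: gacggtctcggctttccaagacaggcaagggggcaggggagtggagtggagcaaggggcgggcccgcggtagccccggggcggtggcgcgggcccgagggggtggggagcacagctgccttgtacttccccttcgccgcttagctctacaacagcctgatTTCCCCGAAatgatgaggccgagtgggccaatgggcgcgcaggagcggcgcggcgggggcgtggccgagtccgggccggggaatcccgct

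Ifitm2 held 1 ISRE core, 46 to 37 bases before its start, and Ifitm1 and Ifitm3 held neither motif. In Bst2, 1 GAS core and 2 ISRE cores overlapped between 136 and 115 bases before the start. Isg15 held 3 overlapping ISRE cores between 78 and 57 bases before its start, and Gbp2 held 1 between 59 and 50. The capitals in Irf1 are a GAS core 90 to 82 bases before the first of its 2 RefSeq starts. A match is a description of these letters, not a measured binding site.

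In LSK cells from either niche, the Ifitm genes had the highest mean levels of the list per kilobase of exon. These genes encode small membrane proteins that block virus entry. Mean levels over all 11 libraries were 616 CPM per kilobase for Ifitm3, 609 for Ifitm2 and 552 for Ifitm1. Ifi27, a mitochondrial and nuclear membrane protein gene, followed at 121, and the immunoproteasome subunit gene Psmb8 at 56.4. Rtp4 (50.6), a chaperone of membrane receptors, and Gbp2 (50.3) came next, closer to each other than the spread of their libraries. At the other end, Ifit3 (3.50), Mx2 (1.89), Isg15 (1.08) and Mx1 (0.750) had the lowest means, although Isg15 is a classic interferon target. Isg15 had 0 to 8 reads in any LSK library.

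**Figure D1:**
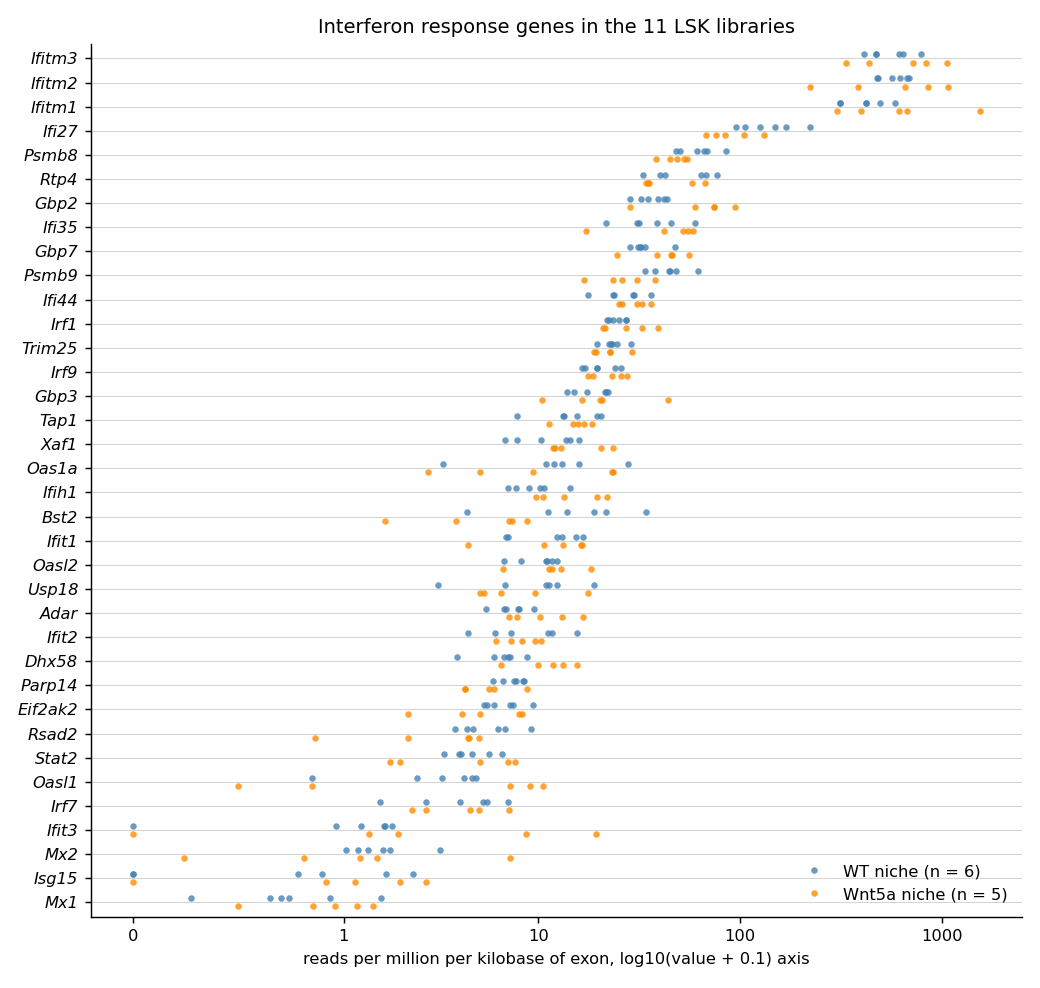
Level of each of the 36 genes in every LSK library, in reads per 1000000 per kilobase of exon on a log10(value + 0.1) axis; each point is 1 library, blue from WT (n = 6) and orange from Wnt5a (n = 5) niches. The Ifitm genes have the highest means, and for every gene the blue and orange points overlap.

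The reads of several members can be shared with near-identical genes, so their split is uncertain. Of the 50-base words in the transcripts of Oas1a, 57.6% also occurred in other genes, mainly Oas1g, and 51.2% of those of Ifit3 occurred in Ifit3b. For Ifitm2 the share was 48.5%, with a predicted gene (Gm45717) the main partner, and for Ifitm1 it was 5.02%. Psmb9 and Tap1 start head to head on chromosome 17 and overlap at 34187553 to 34187764 (GRCm38). Whether the counting used strand is not given in the sources used here.

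No member passed the test between niche genotypes in LSK. With edgeR's quasi-likelihood test, 0 of 33 tested members had an adjusted p under 0.05, against 0.0229% of all genes (3 of 13098). Unadjusted p-values under 0.05 were found for 9 of 33 members and for 2414 of all 13098 genes. Of the 33, 21 had a higher and 12 a lower estimate in Wnt5a than in WT, with a median log2 fold change of 0.12, against 0.02 over all genes tested. Without Wnt5a replicate 4 the members' median was 0.03, with 17 of 33 positive, and without the filter it was 0.13 against 0.32 over all genes. Library values of the 2 groups overlapped for all 33, while 2.74% of all genes did not overlap. In sorted bulk samples, more cells with a transcript and more transcript per cell cannot be told apart.

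**Figure D2:**
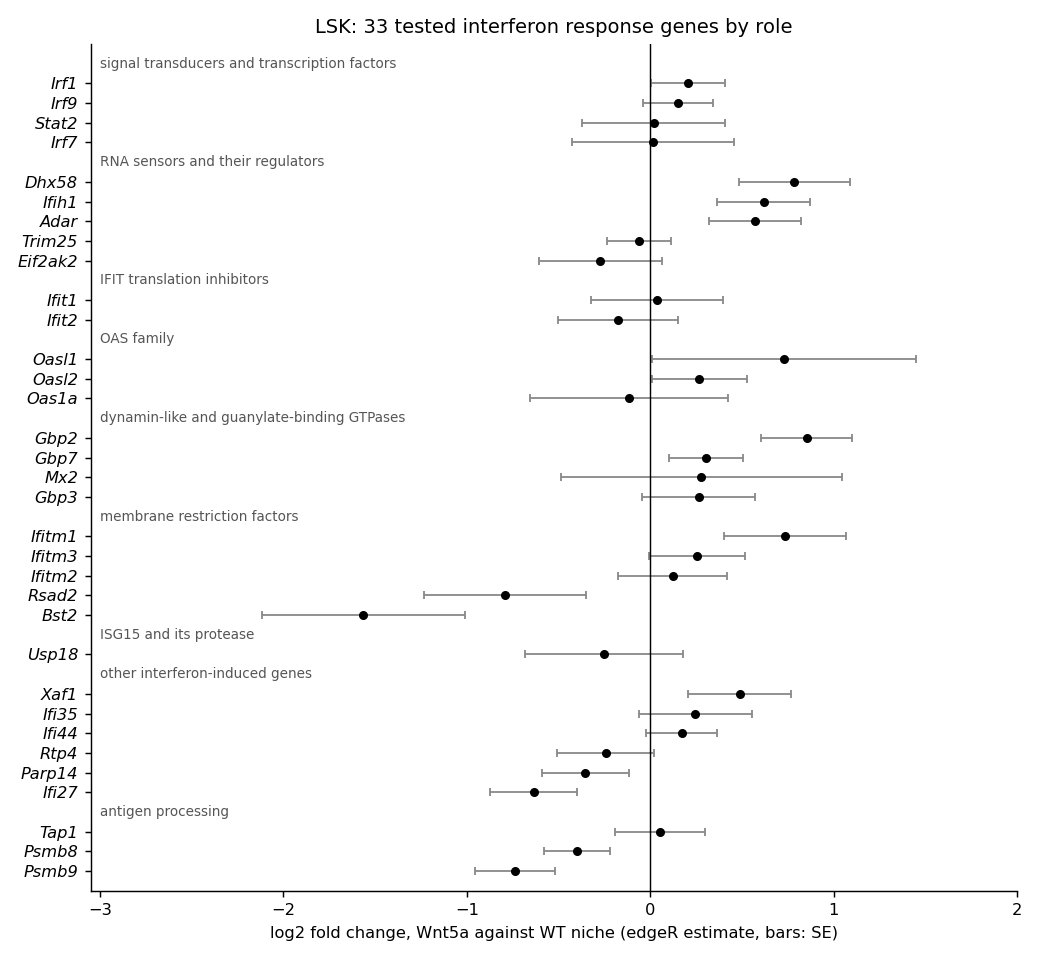
Log2 fold change of the 33 tested members in LSK, Wnt5a against WT niche, with SE bars, grouped by role. Estimates run from -1.57 (Bst2) to 0.85 (Gbp2), and none passed an adjusted p of 0.05.

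The 4 signal transducers had estimates from 0.01 (Irf7, the factor that amplifies type I interferon production, SE 0.44) to 0.21 (Irf1). Stat2 was at 0.02 (SE 0.39). The sign turned in 7 of 17 alternative fits for Irf7 and in 8 of 17 for Stat2. Irf1, an interferon-induced transcription factor gene, had 87.6, 97.1 and 109 CPM as lowest, median and highest values in WT libraries and 83.5, 85.4, 108, 130.3 and 156 CPM in Wnt5a libraries. The Wnt5a values spanned the whole WT range. The log2 fold change was 0.21 (SE 0.20, edgeR adjusted p = 0.609). Irf9, the DNA-binding partner of STAT2, had 110 ± 20 CPM (SD, n = 6) in WT and 122 ± 23 (SD, n = 5) in Wnt5a, and Stat2 27.9 ± 7.0 and 27.9 ± 16.4.

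Of the 5 genes for RNA sensors and their regulators, 3 were among the 8 smallest p-values. Dhx58 encodes LGP2, a helicase that tunes RNA sensing. It had 12.7, 22.5 and 28.7 CPM (lowest, median, highest) in WT and 21.3, 32.7, 38.9, 43.4 and 50.9 CPM in Wnt5a libraries. All Wnt5a libraries except replicate 5 lay above every WT library. Its log2 fold change was 0.79 (SE 0.30, edgeR adjusted p = 0.194).

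Ifih1 encodes MDA5, the sensor of long double-stranded RNA, and Adar the enzyme that edits such RNA and keeps it from being sensed. Ifih1 values were 57.2, 78.1 and 117 CPM in WT (lowest, median, highest) and 79.6, 86.0, 109, 159.6 and 179 CPM in Wnt5a libraries, of which 2 lay above all WT libraries. Adar had 44.2, 59.9 and 77.5 CPM in WT and 57.6, 63.5, 82.6, 106 and 136 CPM in Wnt5a libraries, with 3 above all WT libraries. The log2 fold changes were 0.62 (SE 0.25, edgeR adjusted p = 0.217) for Ifih1 and 0.57 (SE 0.25, edgeR adjusted p = 0.239) for Adar. The libraries above all WT libraries were Wnt5a replicates 2 and 3 for Ifih1 and replicates 1 to 3 for Adar, whose estimate was 0.37 without replicate 1. The other regulators, the ubiquitin ligase gene Trim25 and the kinase gene Eif2ak2 (PKR), had estimates of -0.06 and -0.27.

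The IFIT proteins bind viral RNA and block its translation, and the OAS proteins make the messenger that activates RNase L. Ifit1 and Ifit2 had log2 fold changes of 0.03 and -0.18. Ifit3 stayed under the filter with 0 to 18 reads in WT libraries and 0, 7, 12, 25 and 45 reads in Wnt5a libraries. Ifit3b was also highest in Wnt5a replicate 4, at 17 reads against at most 7 elsewhere. Oasl1 (0.73, SE 0.72) and Oasl2 (0.27, SE 0.26), which encode OAS-like proteins, and Oas1a (-0.11, SE 0.54) had estimates of both signs.

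Among the GTPase genes, all 4 tested members had positive estimates with all libraries, while Mx2 (-0.89) and Gbp3 (-0.23) were negative over the libraries with 4-digit label numbers, which leave out Wnt5a replicates 4 and 5. Gbp2 encodes a guanylate-binding protein that coats intracellular pathogens, and it had the smallest p-value of the list. It measured 72.0, 93.6 and 109.8 CPM (lowest, median, highest) in WT and 71.7, 151, 187.0, 187.4 and 238 CPM in Wnt5a libraries. All Wnt5a libraries but replicate 5 lay above every WT library, and replicate 5 lay just below the lowest of them. The log2 fold change was 0.85 (SE 0.25, edgeR adjusted p = 0.109). Its neighbours on chromosome 3, Gbp3 and Gbp7, had estimates of 0.26 (SE 0.31) and 0.30 (SE 0.20). Mx2, a dynamin-like antiviral GTPase gene, was at 0.28 (SE 0.77) from 1 to 35 reads, and Mx1, with 1 to 21 reads, stayed under the filter.

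Of the 5 membrane restriction factors, 3 had positive and 2 negative estimates. Bst2 encodes tetherin, which holds budding virus at the cell surface, and had the largest estimate of the list in either direction. It had 3.97, 14.8 and 30.8 CPM (lowest, median, highest) in WT libraries and 1.50, 3.48, 6.45, 6.65 and 7.94 CPM in Wnt5a libraries. Wnt5a replicates 4 and 5 lay below all WT libraries and the other 3 within the WT range. Read numbers behind these values ran from 5 to 124 in WT libraries and from 2 to 28 in Wnt5a libraries. The log2 fold change was -1.57 (SE 0.55, edgeR adjusted p = 0.161). Rsad2, the gene of the antiviral enzyme viperin, had -0.79 (SE 0.44).

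Ifitm1 was singled out after its values were seen. It had 341, 460.2 and 643 CPM (lowest, median, highest) in WT and 332, 434, 669.6, 732 and 1689 CPM in Wnt5a libraries. The value of 1689 CPM belonged to Wnt5a replicate 4, and the lowest Wnt5a library lay below every WT library. Its log2 fold change was 0.73 (SE 0.33, edgeR adjusted p = 0.255), and 0.10 (SE 0.25, adjusted p = 0.831) without Wnt5a replicates 4 and 5. The neighbouring genes were also highest in that library, Ifitm2 at 699 CPM against 145 to 558 in the other 10 libraries and Ifitm3 at 715 against 227 to 564. Their log2 fold changes were 0.12 (SE 0.30) and 0.25 (SE 0.26), and -0.48 and -0.20 without Wnt5a replicates 4 and 5.

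Of the 3 antigen processing genes, 2 had negative estimates. Psmb9 and Psmb8 encode the interferon-induced catalytic subunits of the immunoproteasome. Psmb9 had 124, 164 and 228 CPM (lowest, median, highest) in WT and 62.1, 86.2, 95.9, 113 and 139 CPM in Wnt5a libraries. All Wnt5a libraries but replicate 3 lay below every WT library. Its log2 fold change was -0.74 (SE 0.22, edgeR adjusted p = 0.116).

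Psmb8 had 164, 215 and 289.5 CPM (lowest, median, highest) in WT and 129.7, 152, 165, 179 and 185 CPM in Wnt5a libraries, with 2 Wnt5a libraries below all WT ones. Its log2 fold change was -0.40 (SE 0.18, edgeR adjusted p = 0.253). Tap1, the peptide transporter gene whose start overlaps that of Psmb9, had an estimate of 0.05 (SE 0.25). The difference between the 2 estimates of this head-to-head pair was not tested.

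The remaining interferon-induced genes had estimates in both directions. Ifi27 had 140.2, 202 and 327 CPM (lowest, median, highest) in WT and 99.2, 112, 124, 154 and 194 CPM in Wnt5a libraries. Of the Wnt5a libraries, 3 lay below all WT libraries. The log2 fold change was -0.64 (SE 0.24, edgeR adjusted p = 0.181). Xaf1 (0.49), Ifi35 (0.25), Ifi44 (0.17), Rtp4 (-0.24) and Parp14 (-0.35) did not pass either, nor did Usp18 (-0.25), the protease that removes ISG15 and dampens receptor signalling.

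Other tools and sets of libraries called a few members in LSK. DESeq2 called Gbp2 as higher (adjusted p = 0.0380) and Psmb9 as lower (adjusted p = 0.0396), 2 of 33 against 5.01% of all genes, and limma voom called none. Without Wnt5a replicate 5, edgeR called the same 2 genes (2 of 33, against 8.32% of all genes), at 1.05 on the log2 scale for Gbp2 (adjusted p = 0.00714) and -0.79 for Psmb9 (adjusted p = 0.0493). Over the libraries with 4-digit label numbers, which leave out Wnt5a replicates 4 and 5 and whose meaning the labels do not state, edgeR called Gbp2, Ifih1 and Adar as higher and Ifi27 as lower (4 of 33, against 6.34% of all genes). The summed 7 B or plasma cell markers stood at 21428 CPM in Wnt5a replicate 5, against 618 to 4399 CPM in the other LSK libraries, and its part in the members' values was not tested. Summed neutrophil markers (8 genes) were 258 to 521 CPM in Wnt5a and 192 to 294 CPM in WT libraries, and endothelial markers 249 to 405 and 401 to 587 CPM; their part was not tested.

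Which LSK library stood highest or lowest differed from member to member. WT replicate 4 held the highest value of 10 of the 33 tested members and the lowest of 3. Wnt5a replicate 4 held the highest value of 7 members and the lowest of 7. The members' summed share of all reads was 0.376% ± 0.027 (SD, n = 6) in WT and 0.373% ± 0.066 (SD, n = 5) in Wnt5a libraries, with its highest value, 0.474%, in Wnt5a replicate 4 and its lowest, 0.301%, in Wnt5a replicate 1.

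**Figure D3:**
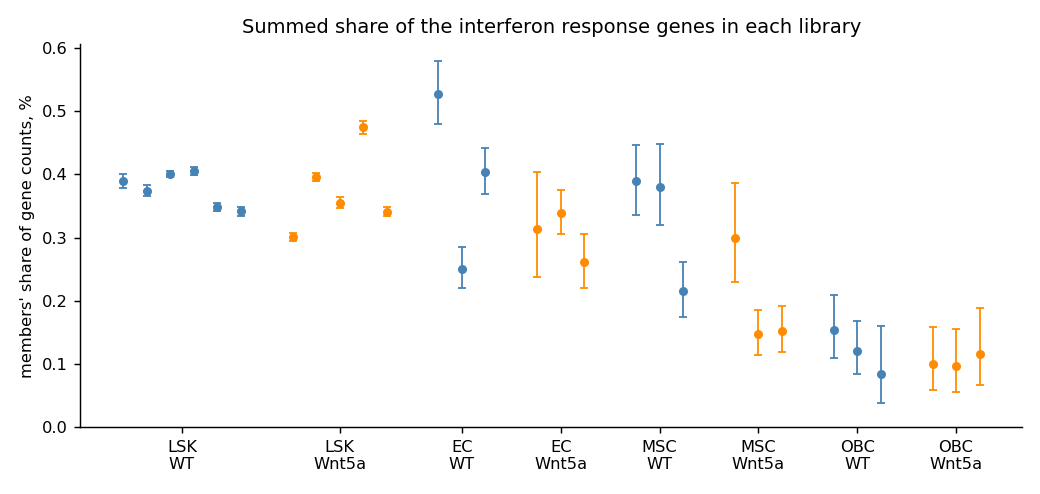
Summed share of the members in the gene counts of each library, in percent, with exact 95% binomial intervals that cover counting error only; blue is WT and orange Wnt5a. LSK libraries lie between 0.301% and 0.474% and OBC libraries between 0.085% and 0.153%, and levels of the read-based LSK and UMI-based niche libraries were normalized separately.

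Genes of the same pathway outside the list gave no call in LSK either. Of 83 listed receptors, kinases, factors, sensors, other induced genes and MHC class I genes, 75 were tested and 0 passed with edgeR, with 22 at an unadjusted p under 0.05. The smallest p-values belonged to Irf8 (log2 fold change 1.45, SE 0.38, edgeR adjusted p = 0.0904), a factor of myeloid and dendritic cell fate, to Parp12 (-0.89, SE 0.23, edgeR adjusted p = 0.0904), a poly-ADP-ribose polymerase family gene, and to Irf2 (0.69, SE 0.19, edgeR adjusted p = 0.0937), a factor that competes at interferon response elements.

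In the niche, members took a larger share of the UMIs in EC than in OBC. Summed over 6 libraries, members made up 1724 of 478853 UMIs in EC, 638 of 248173 in MSC and 136 of 115672 in OBC. At least 1 UMI was found for 33 of 35 members in EC, 33 in MSC and 26 in OBC. Ifitm3, Ifitm2 and Bst2 together held 41.7% of the members' UMIs in EC and 35.6% in MSC. Of the 35 members, 23 had their highest UMIs per 1000000 in EC, 10 in MSC and 2 (Gbp3 and Ifit2) in OBC, and OBC was the lowest for 28. Of all 15930 genes with a UMI, 42.1% were highest in EC, 31.4% in MSC and 26.5% in OBC, and 43.4% were lowest in OBC. These shares include genes with few UMIs, and tied populations did not count as lowest, so they are not like for like with the members. For Gbp3, Ifit2, Ifitm1, Mx2 and Oasl1 the highest population held at most 3 UMIs, so their place in this order rests on few molecules.

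Ifitm1, one of the highest members in LSK, was at or near 0 in the niche cells. It had 0 UMIs in EC, where the exact 95% Poisson interval reached 7.70 per 1000000, 1 UMI in MSC and 0 in OBC. Isg15, near 0 in LSK, had 53 UMIs in EC, 12 in MSC and 9 in OBC, or 111, 48.4 and 77.8 per 1000000. These genes were chosen after their values were seen, and the protocols differ, so no test across the tables was made.

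Between the niche populations, Ifitm3 and Ifitm2 were higher in EC. In EC libraries from WT niches Ifitm3 had 955, 563 and 873 CPM and in those from Wnt5a niches 231, 556 and 417 CPM. In MSC it had 674, 320.4 and 316 CPM in WT and 443, 172 and 177 CPM in Wnt5a libraries. In OBC it had 554, 186 and 108 CPM in WT and 65.3, 280.1 and 0 CPM in Wnt5a libraries. Values of the 3 populations overlapped, with EC from WT niches highest. Against the mean of the other populations, both genotypes weighted equally, Ifitm3 was higher in EC, at 1.34 on the log2 scale (SE 0.31, edgeR adjusted p = 0.000615) and lower in OBC (-1.36, SE 0.42, edgeR adjusted p = 0.00769).

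Ifitm2 followed the same order. It had 658, 401 and 343 CPM in EC from WT niches and 46.2, 236 and 317 CPM in EC from Wnt5a niches. In MSC it had 408, 214 and 167 CPM in WT and 177, 108 and 88.5 CPM in Wnt5a libraries. In OBC it had 151, 186 and 0 CPM in WT and 0, 140.1 and 176 CPM in Wnt5a libraries. It was higher in EC by 1.29 (SE 0.35, edgeR adjusted p = 0.00272) and lower in OBC (-1.23, SE 0.49, edgeR adjusted p = 0.0371). The OBC values rested on 11 UMIs, found in 4 of 6 libraries. The OBC call was lost with limma voom (adjusted p = 0.0534) and without OBC WT replicate 7 (0.0523), OBC WT replicate 9 (0.0795) or OBC Wnt5a replicate 10 (0.113).

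Bst2 was lower in OBC with both genotypes weighted equally, and its values in EC and MSC overlapped. It had 334, 275 and 188 CPM in EC from WT niches, 231, 221 and 217 in EC from Wnt5a niches, 443, 363 and 149 in MSC from WT niches and 399, 279.7 and 88.5 in MSC from Wnt5a niches. In OBC it had 252, 325 and 108 CPM in WT and 65.3, 70.0 and 0 CPM in Wnt5a libraries. These OBC values rested on 13 UMIs in WT and 2 in Wnt5a libraries, and the WT values overlapped those of EC and MSC. Its difference in OBC was -1.38 (SE 0.50, edgeR adjusted p = 0.0225; limma voom adjusted p = 0.0782). In EC (0.56, adjusted p = 0.212) and MSC (0.82, adjusted p = 0.193) it did not pass the edgeR test.

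Ifi27 and Irf1 passed in no population. Ifi27 had 259, 175 and 242 CPM in EC WT, 139, 168 and 333 in EC Wnt5a, 124, 214 and 223 in MSC WT, and 310.4, 0 and 177 in MSC Wnt5a libraries. Its estimates were 0.84 in EC (SE 0.39, edgeR adjusted p = 0.0760) and -0.97 in OBC (SE 0.54, edgeR adjusted p = 0.138), where it had 0 to 264 CPM. The EC difference passed with RLE scaling (0.95, adjusted p = 0.0446) and without EC WT replicate 14 (0.0281), MSC Wnt5a replicate 4 (0.0225) or OBC Wnt5a replicate 12 (0.0289). Irf1 had 121, 138 and 208 CPM in EC WT, 231, 152 and 167 in EC Wnt5a, and 70.0 to 215 CPM in OBC libraries, with estimates of 0.43 in EC and -0.36 in OBC.

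These counts stood against a background in which many genes differed between populations. In EC, 2 of 5 tested members were higher, against 24.4% of all 1099 genes tested, and their 5 estimates had a median of 0.84 against 0.19 over all genes. In OBC, 3 of 5 were lower, against 26.8% of all genes, with a median of -1.23 against -0.24. In MSC, 0 of 5 passed with edgeR (1 at an unadjusted p under 0.05, and 0 with limma voom), against 6.73% of all genes in either direction. A member that passed the filter had UMIs enough in at least 1 group, so the 5 do not stand for the list. The summed endothelial markers were 9449 to 13497 CPM in EC, 6519 to 11194 CPM in MSC and 2695 to 6857 CPM in OBC, and their part in the Ifitm differences was not tested.

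**Figure D4:**
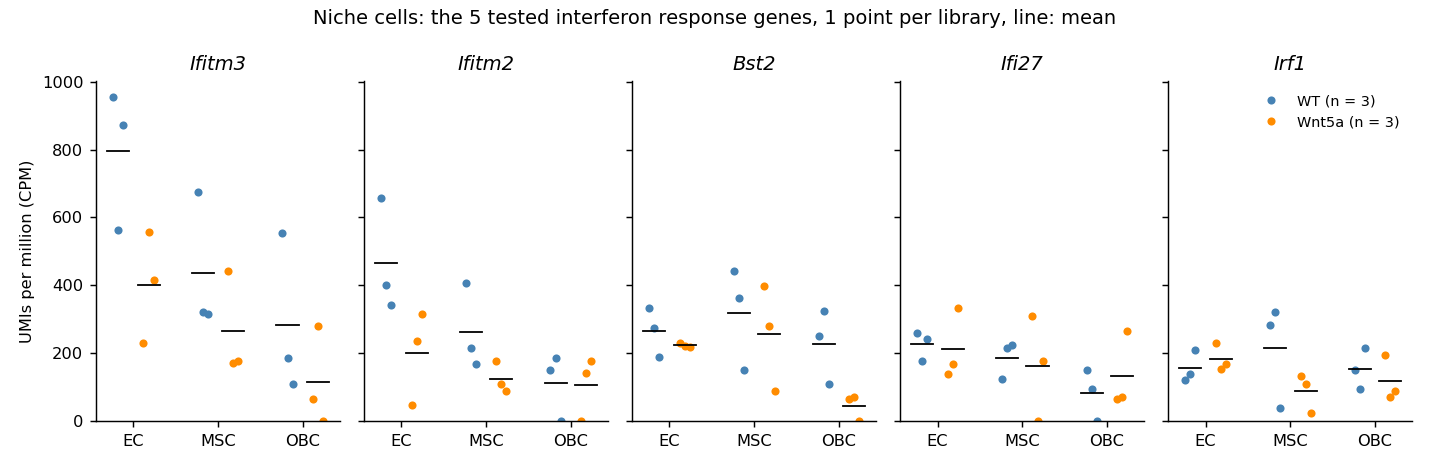
Level of the 5 tested members in UMIs per 1000000 in EC, MSC and OBC; each point is 1 library, blue from WT (n = 3) and orange from Wnt5a (n = 3) niches, and black lines are group means. Ifitm3 reached 955 CPM in EC from WT niches and at most 554 CPM in OBC.

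All 35 members could be tested without the filter. Then 8 of 35 passed edgeR's test in EC (against 5.52% of 15930 genes, either direction): Ifitm2, Ifitm3, Ifi27, Trim25, Irf9, Irf7, Psmb8 and Gbp2. In OBC, 7 of 35 passed (against 4.95%, either direction): Ifitm3, Ifitm2, Bst2, Ifi27, Trim25, Psmb8 and Gbp7. The 15930 genes are all those with a UMI, of which the filter kept 1099. Among these 1099, 24.4% were called higher in EC and 26.8% lower in OBC. No enrichment of the members is therefore read from the unfiltered shares. Psmb8 had 82 UMIs in EC (171 per 1000000), 37 in MSC (149) and 3 in OBC (25.9), where the exact 95% Poisson interval reached 75.8 per 1000000. Trim25 had 70 UMIs in EC (146 per 1000000), 25 in MSC (101) and 2 in OBC (17.3, interval up to 62.5). Irf9 and Gbp2 had 0 UMIs in OBC, where the interval reached 31.9 per 1000000.

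Of the 83 other pathway genes, 11 could be tested in the niche. In EC, 3 of 11 were higher, a share close to the 24.4% of all genes, and none lower: Ly6e, a small membrane protein gene (1.35, edgeR adjusted p = 0.000163), the MHC class I gene H2-D1 (0.78, edgeR adjusted p = 0.00456) and its light chain B2m (0.65, edgeR adjusted p = 0.0347). In OBC, 3 of 11 were lower, a share close to the 26.8% of all genes, and none higher: Ly6e (-2.09, edgeR adjusted p = 1.13e-05), H2-D1 (-0.88, edgeR adjusted p = 0.00669) and the transporter gene Tap2 (-1.63, edgeR adjusted p = 0.0183). None of the 11 passed in MSC, where Socs3, a brake on cytokine signalling, had the smallest p-value (-1.20, edgeR adjusted p = 0.0567).

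Within each niche population, genotype gave no call among the members. With edgeR, 0 of 5 passed in EC (2 at an unadjusted p under 0.05), 0 of 5 in OBC (1) and 0 of 5 in MSC (2), and limma voom and DESeq2 also called 0. Over all genes the shares called were 0.364% in EC, 1.27% in OBC and 0.455% in MSC. The genotype effect on a member did not pass a test of difference among populations either (0 of 5, with 0 at an unadjusted p under 0.05 and 0 with limma voom, against 0.546% of all genes; edgeR adjusted p from 0.724 to 0.984).

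Ifitm3 had negative estimates in all 3 populations. In EC its mean was 797 ± 206 CPM (SD, n = 3) in WT and 401 ± 163 (SD, n = 3) in Wnt5a libraries, and every Wnt5a library lay below every WT library. The closest pair, WT replicate 14 and Wnt5a replicate 17, differed by less than the value of 3 UMIs (37.6 and 22.8 CPM, respectively). WT replicate 14 was also the library with the most erythroid transcripts. The log2 fold change in EC was -0.94 (SE 0.42, edgeR adjusted p = 0.510). In MSC it was -0.99 (SE 0.51, edgeR adjusted p = 0.289) and in OBC -1.35 (SE 0.82, edgeR adjusted p = 0.662), with overlapping libraries in both. The MSC estimate was -0.56 without MSC WT replicate 1, and the OBC estimate -0.39 without OBC WT replicate 7 and -2.98 without OBC Wnt5a replicate 11.

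Ifitm2 in EC measured 467 ± 168 CPM (SD, n = 3) in WT and 199.7 ± 139 (SD, n = 3) in Wnt5a libraries, again with no overlap. Its log2 fold change was -1.08 (SE 0.45, edgeR adjusted p = 0.483), and the lowest value came from replicate 16, which had 1 UMI of Ifitm2 in 18542; without EC WT replicate 13 the estimate was -0.69. In MSC the estimate was -1.30 (SE 0.58, edgeR adjusted p = 0.225; -0.86 without MSC WT replicate 1) and in OBC -0.47 (SE 0.98, edgeR adjusted p = 0.939). Non-overlap was common at this size: 14% of all genes in EC, 13.9% in OBC and 24.7% in MSC had groups that did not overlap, against 2, 1 and 0 of the 5 members.

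Bst2 in OBC was the third case without overlap, at 228 ± 111 CPM (SD, n = 3) in WT and 45.1 ± 39.1 (SD, n = 3) in Wnt5a libraries. It rested on 13 against 2 UMIs, a ratio of 0.190 with an exact 95% interval of 0.0208 to 0.840 for counting error only. The log2 fold change was -2.32 (SE 0.97, edgeR adjusted p = 0.380). In EC (-0.29) and MSC (-0.55) Bst2 estimates were smaller. Irf1 in MSC had 284, 320.4 and 37.2 CPM in WT and 133, 108 and 22.1 CPM in Wnt5a libraries, and an estimate of -1.51 on the log2 scale (SE 0.67, edgeR adjusted p = 0.226; -0.99 without MSC Wnt5a replicate 6).

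Averaged over the 3 populations, a comparison added after these values were seen, all 5 estimates were negative and 0 of 5 passed with edgeR (3 at an unadjusted p under 0.05, and 0 with limma voom), against 3.09% of all genes. Ifitm3 came closest, at -1.09 (SE 0.35, edgeR adjusted p = 0.0688), followed by Bst2 at -1.05 (SE 0.39, 0.146) and Ifitm2 at -0.95 (SE 0.41, 0.215). Irf1 (-0.55) and Ifi27 (-0.11) had smaller estimates, and that of Ifi27 turned positive without OBC WT replicate 7 or MSC Wnt5a replicate 5. Ifitm3 passed when EC WT replicate 14 was left out (-1.18, edgeR adjusted p = 0.0222), the library with the most erythroid transcripts. It also passed without OBC WT replicate 9 (0.0453), OBC Wnt5a replicate 11 (0.0392), EC Wnt5a replicate 17 (0.0480) or MSC Wnt5a replicate 4 (0.0368), and its adjusted p reached 0.384 without OBC WT replicate 7. Summed neutrophil markers were higher in every Wnt5a than in every WT library of the same population (1334 to 2208 against 250.3 to 476 CPM in EC), and endothelial markers in MSC were lower in Wnt5a (6519 to 7899 CPM) than in WT (10339 to 11194 CPM). Their part in the members' differences was not tested.

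**Figure D5:**
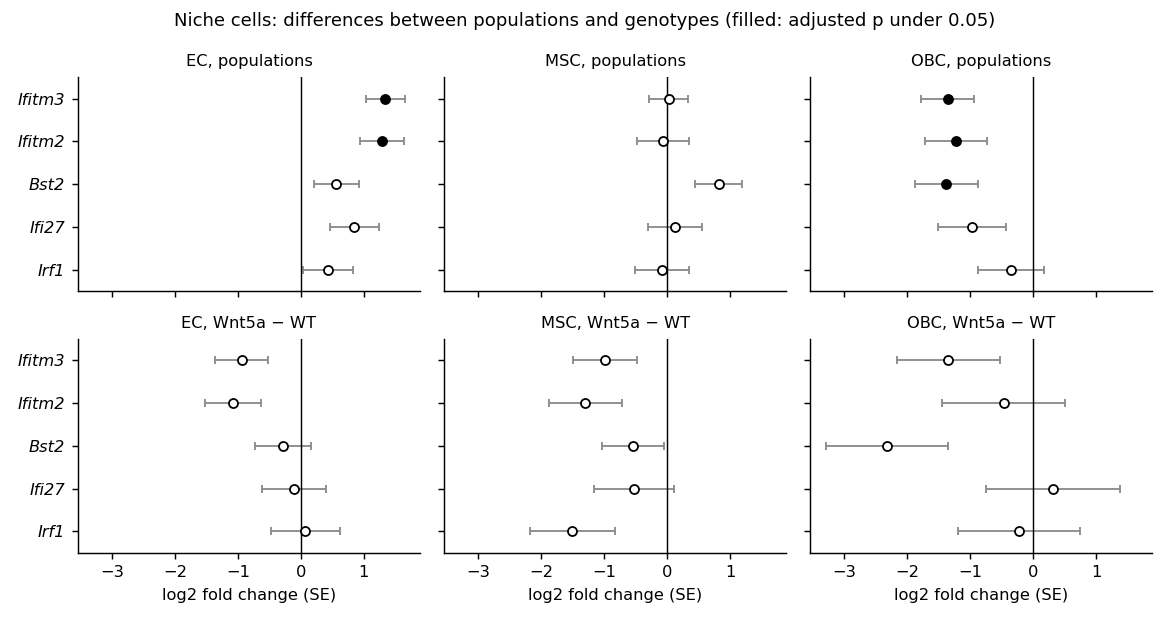
Log2 fold changes with SE bars for the 5 tested members in the niche, each population against the others (top) and Wnt5a against WT within each population (bottom); filled points had an edgeR adjusted p under 0.05. Filled points are Ifitm3 and Ifitm2 in EC and Ifitm3, Ifitm2 and Bst2 in OBC, and no genotype point is filled.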

How the data were processed

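LSK cells were profiled with Smart-seq2 (11 libraries) and niche cells with UMI-seq (18 libraries), per the labels. The deposited tables hold counts per Ensembl gene that were not normalized, reads for LSK and UMIs for niche cells. STAR, featureCounts and the build mm10/GRCm38 are named in the submitters' processing notes; no source used here gives their versions, the annotation release, the use of strand or the collapsing of UMIs. Gene symbols and exon lengths came from GENCODE M21. The 28 spike-in entries of the niche table were kept out of library sizes and tests.

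From these counts, edgeR 4.0.16 (R 4.3.3) was fitted on each table with TMM scaling, filterByExpr by group (minimum count 10, minimum total 15) and robust quasi-likelihood tests; p-values were adjusted by Benjamini-Hochberg over all 13098 (LSK) or 1099 (niche) genes tested, with a threshold of 0.05. The niche fit had 6 group means. Standard errors (SE) come from the estimate and the F statistic. CPM are counts per 1000000 after TMM scaling. Fits were tested on simulated data. Alternatives were RLE scaling, no filter, minimum count 5, limma 3.58.1 voom, DESeq2 1.42.0, subsets of libraries and leaving out each library. A value of 3 counts equals 0.475 to 2.38 CPM in LSK, 20.1 to 139 in EC, 53.2 to 133 in MSC and 139 to 323 in OBC. Intervals and these floors cover counting error only, and LSK reads carry no molecular tags.

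The members and gene lists were chosen with earlier results of these data known. Library values are given for members past a test, the 8 smallest p-values in LSK, the 3 smallest per niche genotype comparison and the 3 with the highest mean CPM per niche population; others are given by counts and estimates. Of the other pathway genes, those past a test and the 3 with the smallest p-values in LSK are named; Socs3 was named after its values were seen.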

Additional observations from a re-analysis of the deposited data

How the results depend on the processing

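The counts of members past the edgeR threshold stayed at 0 under all alternatives run for genotype within EC, OBC and MSC, for MSC against the other populations and for the test of genotype by population. In LSK the count of 0 became 2 with DESeq2 and 4 with the 4-digit label numbers, and ran from 0 to 2 when a library was left out; the cause was not tested. For EC against the other populations the count of 2 was 8 without the filter and 2 to 6 with a library left out; for OBC the count of 3 was 7 without the filter, 1 with limma voom and 3 to 6 with a library left out. Leaving out a niche library reduced the smallest group to 2 libraries, so that 6 to 8 rather than 5 members passed the filter in these fits. For the mean of the 3 genotype differences, chosen after seeing the data, the count of 0 ran from 0 to 1. Among the 27 estimates with the smallest p-values and their 553 refits, 1 turned direction: Ifitm2 by genotype in OBC, -0.47 with all libraries, 0.15 without OBC Wnt5a replicate 10 and -1.02 without OBC Wnt5a replicate 12; the cause was not tested. Over all tested members, estimates turned in 40 of 561 refits for 12 of 33 members in LSK, none with an estimate beyond 0.28 with all libraries; 7 of these turned with the 4-digit label numbers (Mx2, Ifitm2, Ifitm3, Gbp3, Oas1a, Trim25 and Eif2ak2). In the niche genotype comparisons 7 of 120 (EC), 4 of 115 (OBC) and 1 of 118 (MSC) refits turned, and against the other populations 0 of 105 in EC, 1 of 105 in OBC and 23 of 105 in MSC. RLE scaling moved the median gene by 0.11 in EC and -0.12 in OBC against the other populations and by -0.20 for genotype in MSC. Fitting OBC libraries alone left no member above the filter. No paired analysis was possible because the labels give the groups no shared replicate numbers. Depth limits the niche results: in OBC, 3 UMIs of a gene equal 139 to 323 CPM.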
